A study of Mus musculus with 6 samples.

Results

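Reception of fibroblast growth factors (FGFs) was followed through 6 genes in mouse small intestinal crypts: the receptors Fgfr1, Fgfr2, Fgfr3 and Fgfr4, the decoy receptor Fgfrl1, and Klb, which encodes the co-receptor beta-Klotho. They were picked by symbol from a table of 17526 genes, and all 6 were found. The set was chosen by family membership and by one measured value, the lower Fgfrl1 of the knockout crypts, so levels and differences of the 6 genes are given as a description with no test. Crypts of mice with a floxed Fpr2 gene (Fpr2 f/f, genotype given as WT) gave the 3 floxed control libraries, and crypts of mice that lack Fpr2 in the intestinal epithelium (VKO) gave the 3 knockout libraries. Fpr2 encodes a receptor for formylated peptides. The labels name no strain, age or sex and no promoter for the deletion. They also do not state whether each library is its own animal, so each p-value reflects only library-to-library spread, part or all of which may be technical.

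FGFs are secreted ligands that bring receptor tyrosine kinases together in pairs, for many of them with heparan sulfate chains of the cell surface as a partner. The activated kinase signals through the docking protein FRS2 and the MAP kinases, and the pathway restrains itself through induced inhibitors such as the Sprouty and DUSP proteins. Fgfrl1 binds ligand and heparin through its extracellular immunoglobulin domains but has no kinase domain. In the gut, FGF7 and FGF10 from the mesenchyme act on the epithelial form of FGFR2, FGFR3 acts in crypt development, and ileal FGF15 travels to the liver, where it signals through FGFR4 with beta-Klotho.

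The coding sequences show what separates the decoy from its relatives. The codons of the catalytic loop of the kinase, which include the catalytic aspartate, were found in frame in Fgfr1, Fgfr2, Fgfr3 and Fgfr4. They are printed in capitals below, with 12 coding bases on each side, 5′ to 3′ in the sense of the gene (GENCODE M21 principal transcripts, GRCm38, the assembly of mm10). In each of the 4 genes the window is split by an intron, which the coordinates include.
Fgfr1, chr8:25570895-25572379, plus strand: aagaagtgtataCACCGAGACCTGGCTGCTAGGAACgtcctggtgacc
Fgfr2, chr7:130172898-130177680, minus strand: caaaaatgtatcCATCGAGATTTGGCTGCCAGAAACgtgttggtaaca
Fgfr3, chr5:33734232-33734388, plus strand: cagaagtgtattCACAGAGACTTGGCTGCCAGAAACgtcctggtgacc
Fgfr4, chr13:55166281-55166899, plus strand: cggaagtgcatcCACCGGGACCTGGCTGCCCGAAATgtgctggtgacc
Between pairs of these genes, 18 to 21 of the 24 capital bases and 35 to 42 of the 48 printed bases were identical. Fgfrl1 has no such loop, and the start of that motif occurs 0 times in its reading frame. Its frame runs for 529 codons before the stop, and its intracellular end instead holds a histidine-rich stretch, with 5 histidine codons among the 20 printed here, shown in capitals:
Fgfrl1, chr5:108706142-108706201, plus strand: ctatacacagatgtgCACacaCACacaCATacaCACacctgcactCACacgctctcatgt

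The coding sequence of Fgfrl1 has 1590 bases with the stop codon, against 2400 in Fgfr4, 2403 in Fgfr3, 2469 in Fgfr1, 2523 in Fgfr2 and 3132 in Klb. By RefSeq on GRCm38.p6, Fgfrl1 (gene 116701) lies at chr5:108694229-108706950, Klb (gene 83379) at chr5:65348411-65386957 and Fgfr3 (gene 14184) at chr5:33721724-33737068. Fgfr2 (gene 14183) lies at chr7:130162451-130266808, Fgfr4 (gene 14186) at chr13:55152818-55168759 and Fgfr1 (gene 14182) at chr8:25518759-25575718. Counts were summed per gene, so the epithelial and mesenchymal splice forms of Fgfr2 cannot be told apart. In the annotation no other gene spans an exon of Fgfrl1, Klb or Fgfr4. Fgfr1 and Fgfr3 are each overlapped by another annotated gene on the opposite strand (Gm16159 and G630022F23Rik), and Fgfr2 by a model of Ctbp2 on the same strand. No source used here states whether counting used strand.

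Library totals ran from 11108511 to 16695304 estimated counts in the floxed controls and from 16542933 to 16859902 in the knockouts. CPM below is a count scaled to a common library size after TMM, which corrects for differences in library make-up. Of 17526 genes, 12943 passed the low count filter, among them 5 of the 6 receptor genes; Fgfr1 did not. Crypt markers were present in all libraries, with Lgr5 of the stem cells at 20.3 CPM or more and Lyz1 of the Paneth cells at 8623 CPM or more. Floxed controls 1 and 3 stood apart from floxed control 2 on lymphocyte transcripts: markers of T cells summed to 166.6, 46.3 and 131.7 CPM in the controls in replicate order, against 38.3 to 49.4 CPM in the knockouts. Markers of B and plasma cells summed to 45.5, 10.6 and 31.3 CPM in the same controls, whereas myeloid markers, at 35.3, 41.5 and 26.0 CPM, did not show this separation. The split was not limited to lymphocytes: erythroid markers had 15.7, 5.11 and 17.2 CPM and endothelial markers 4.19, 2.49 and 4.63 CPM in the controls. Smooth muscle markers, at 1.83, 6.16 and 2.86 CPM, had the opposite order. Fpr2 itself was not analysed here, so the genotype was not checked on the deleted gene.

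Fgfrl1 had the lowest knockout level relative to control among the 5 receptor genes that passed the filter. Floxed controls 1 to 3 had 60.1, 41.0 and 66.6 CPM, whereas knockouts 1 to 3 had 25.3, 23.9 and 19.0 CPM. Every knockout lay below every control, and the knockouts were close to each other while floxed control 2 lay well under the other 2 controls. The means were 55.9 ± 13.3 and 22.7 ± 3.31 CPM (SD, n = 3 each), so the knockouts held 40.6% of the control level, with a fitted log2 fold change of -1.30 ± 0.21 (SE). The unscaled counts were 688, 626 and 676 in the controls and 448, 445 and 339 in the knockouts. With floxed controls 1 and 3 left out, which leaves 1 control library, the log2 fold change was -0.79 ± 0.22.

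**Figure D1:**
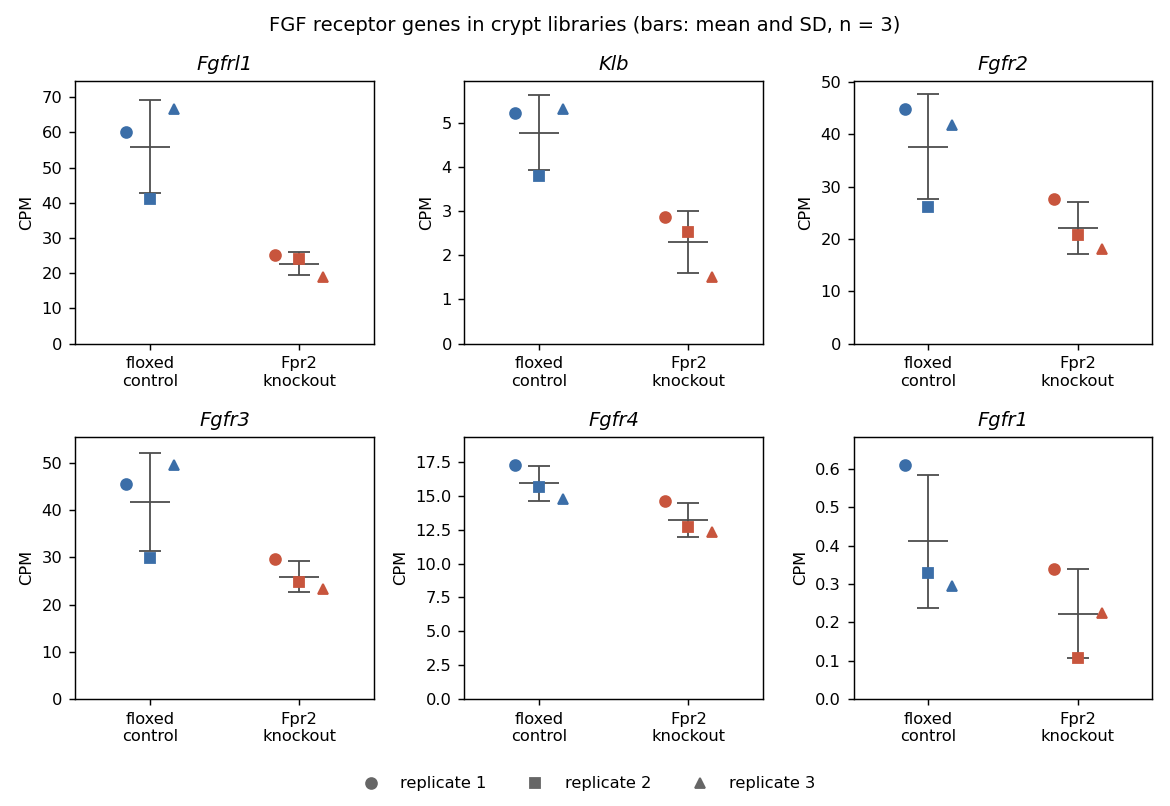
Level in CPM of the 6 FGF receptor genes in each library, floxed controls in blue and knockouts in red; marker shape gives the replicate number, and bars the mean and SD of 3 libraries. For Fgfrl1 the knockouts sit between 19.0 and 25.3 CPM, all below the lowest control at 41.0 CPM, while for Fgfr2 and Fgfr1 the groups overlap.

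Klb, the co-receptor that fits FGFR4 for the hormone-like FGFs, was also low in the knockouts, at a far smaller level. Its controls had 5.24, 3.80 and 5.32 CPM and its knockouts 2.88, 2.52 and 1.51 CPM, in replicate order. The groups did not overlap, but the values rest on 26.89 to 60.33 estimated counts a library, the thinnest of the 5 genes that passed the filter. The means were 4.79 ± 0.853 and 2.30 ± 0.709 CPM (SD, n = 3), a log2 fold change of -1.05 ± 0.32 (SE). It was -0.66 ± 0.42 without floxed controls 1 and 3.

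Fgfr4, the receptor that works with Klb, had the narrowest spread within groups and the smallest difference on the log2 scale among the 5 genes that passed the filter. The controls had 17.3, 15.7 and 14.8 CPM, the knockouts 14.6, 12.7 and 12.3 CPM. The highest knockout lay just under the lowest control. The means of 15.9 ± 1.28 and 13.2 ± 1.23 CPM (SD, n = 3) gave a log2 fold change of -0.27 ± 0.18 (SE). Fgf15, the ileal ligand of this receptor pair, was near its detection limit: 0.611, 0.656 and 0.886 CPM in the controls, 1.07 and 0.672 CPM in knockouts 1 and 3, and 4.51 CPM in knockout 2. Its high mean in the knockouts is that of 1 library, with 84 of the gene's 141.0 counts.

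Fgfr2, the receptor for FGF7 and FGF10 on epithelia, had 44.8, 26.2 and 41.9 CPM across floxed controls 1 to 3, then 27.6, 20.7 and 18.1 CPM across knockouts 1 to 3. Here the groups overlapped, because knockout 1 lay above floxed control 2. The means were 37.6 ± 10.02 and 22.1 ± 4.92 CPM (SD, n = 3), a log2 fold change of -0.76 ± 0.24 (SE). It was -0.18 ± 0.25 without floxed controls 1 and 3, and -1.16 ± 0.19 without floxed control 2 and knockout 1.

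Fgfr3, whose loss is known to affect crypt formation in young mice, also had floxed control 2 as its lowest control and knockout 1 as its highest knockout. Controls had 45.6, 30.0 and 49.6 CPM and knockouts 29.6, 24.7 and 23.4 CPM, so that floxed control 2 and knockout 1 nearly met. The means were 41.7 ± 10.4 and 25.9 ± 3.25 CPM (SD, n = 3), with a log2 fold change of -0.69 ± 0.21 (SE). Without floxed controls 1 and 3 it was -0.15 ± 0.22.

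Fgfr1, best known from mesenchymal cells, was barely detected, with 2 to 7 counts in any library and 26.9 over all 6. Its levels were 0.611, 0.328 and 0.295 CPM in the controls and 0.339, 0.107 and 0.224 CPM in the knockouts, and no fold change is given at this depth. Of 7 fibroblast and mesenchyme markers in the table, 2 passed the filter: Vim at 7.03 to 20.7 CPM and Pdgfrb at 4.09 to 8.13 CPM. Pdgfra had at most 0.0560 CPM and Dcn at most 0.395 CPM in any library, and the list summed to 15.7 to 28.2 CPM in the controls and 13.5 to 20.2 CPM in the knockouts. Over the 5 genes that passed the filter, 4 had groups that did not overlap, all with the knockouts lower. Over all genes tested, 10.3% had such a separation with the knockouts lower and 6.99% with the knockouts higher; because the set was chosen with this comparison in view, nothing is read from its count.

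Levels of different genes were compared per kilobase of the principal transcript. In the controls the order was Fgfrl1 at 24.0 ± 5.70 CPM per kb, Fgfr2 at 11.3 ± 3.02, Fgfr3 at 9.89 ± 2.46, Fgfr4 at 4.79 ± 0.384, Klb at 1.35 ± 0.241 and Fgfr1 at 0.0819 ± 0.0346 (SD, n = 3). Fgfr2 and Fgfr3 did not differ beyond their spread. Their order also turned with the gene model: per kilobase of all annotated exons Fgfr2 had a mean of 7.35 CPM in the controls and Fgfr3 had 9.49 CPM. In the knockouts Fgfrl1 was still first, at 9.75 ± 1.42 CPM per kb, with Fgfr2 at 6.65 ± 1.48, Fgfr3 at 6.14 ± 0.770, Fgfr4 at 3.98 ± 0.370 and Klb at 0.651 ± 0.200. The decoy was thus the most abundant of the 6 transcripts per kilobase in every library. In the knockouts this rank depended on the scaling by length. By CPM, Fgfr3 had 29.6, 24.7 and 23.4 there, against 25.3, 23.9 and 19.0 for Fgfrl1. In the controls Fgfrl1 was first by CPM too.

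Per kilobase, Fgfrl1 took 45.4%, 45.8% and 48.5% of the summed level of the 6 genes in the controls, against 34.5%, 38.1% and 35.0% in the knockouts. Set against the 4 kinase receptors summed, Fgfrl1 stood at 0.871, 0.892 and 0.990 in the controls and at 0.549, 0.644 and 0.553 in the knockouts. The summed level of the kinase receptors was 29.6, 19.8 and 28.9 CPM per kb against 19.8, 15.9 and 14.7 CPM per kb. Floxed control 2 thus met the knockouts on the sum of kinase receptors but sat with the other controls on the ratio. The share and the ratio both rest on Fgfrl1, which was chosen as lower in the knockouts. Their separation of the groups is therefore no separate result. The share of Fgfr4 among the kinase receptors was 17.6%, 23.9% and 15.4% in the controls and 22.2%, 24.02% and 25.1% in the knockouts, with floxed control 2 inside the knockout range.

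**Figure D2:**
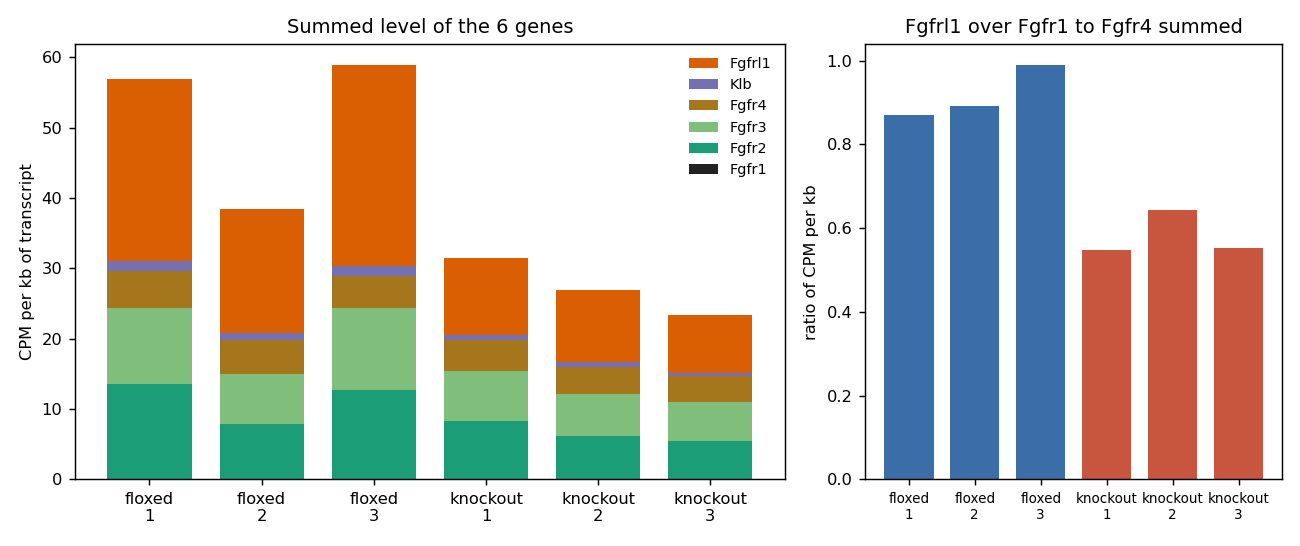
Left, stacked level of the 6 genes in CPM per kb of principal transcript in each library; right, Fgfrl1 over the sum of Fgfr1, Fgfr2, Fgfr3 and Fgfr4 on the same scale. The stack of floxed control 2 reaches 38.5 CPM per kb against 56.9 and 58.9 in the other controls, and its ratio of 0.892 lies between theirs. Fgfrl1 was chosen as lower in the knockouts, so the lower ratio there is no separate result.

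The closeness of floxed control 2 and knockout 1 recurred gene by gene. Between these 2 libraries the log2 difference, knockout minus control, was 0.076 for Fgfr2, -0.019 for Fgfr3 and -0.0998 for Fgfr4, but -0.70 for Fgfrl1 and -0.39 for Klb. Between knockouts 2 and 3 and floxed controls 1 and 3 it was -1.16 for Fgfr2, -0.98 for Fgfr3, -0.35 for Fgfr4, -1.57 for Fgfrl1 and -1.37 for Klb. For Fgfr2, Fgfr3, Fgfrl1 and Klb the first pairing set the lowest control against the highest knockout, 1 library each. A smaller difference there than in the second pairing was thus fixed by the choice of libraries. Fgfrl1 and Klb were lower in the knockouts in both pairings, but their groups did not overlap, so any pairing would give that order. Fgfr2 and Fgfr3 were close to equal in the first pairing and lower in the second; the difference between pairings was not tested.

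Across the 6 libraries the receptor genes moved together. As a description over 6 libraries that share their depth and scaling, log2 CPM of Fgfr2 and Fgfr3 had a Pearson r of 0.980, Fgfrl1 and Klb 0.962, and Fgfrl1 and Fgfr3 0.953. After subtraction of each group's mean these were 0.950, 0.866 and 0.953. Fgfr4 was the loosest of the 5, with r from 0.749 to 0.855 to the others, and from 0.265 to 0.578 after the group means were removed. Among 11605 genes with an average log2 CPM of at least 1, those closest to Fgfrl1 were Bcas3, Mmp20, Fbxl16, Mrgpre and Crtc3, with r from 0.994 to 0.9998. Closest to Fgfr2 were Gcnt3, Igdcc4, Myof, Pik3cg and Pcsk1, and closest to Fgfr3 were P4ha1, Il6ra, Nkd1, Kcnh2 and Gfi1. For Klb they were Csrnp1, Lfng, Syt7, Zdhhc8 and Ces1c, and for Fgfr4 Creb3l2, Slc39a10, Fam193a, Stat3 and Myadm. Many genes reached a looser r over 0.9 with these 6 libraries: 634 with Fgfrl1, 709 with Fgfr2, 691 with Fgfr3, 632 with Klb and 202 with Fgfr4. How many were as close as the named genes was not counted.

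Markers of several crypt cell types were lower in the same libraries. The 8 Paneth cell markers summed to 52590 to 106100 CPM in the controls and 17290 to 27940 CPM in the knockouts, and the 8 enteroendocrine markers to 541.4 to 846.2 against 345.5 to 474.8 CPM. The 8 goblet cell markers summed to 13550 to 19880 against 8095 to 12750 CPM, and the 8 stem cell markers to 1949 to 2503 against 1363 to 1892 CPM. Olfm4 made up most of the stem cell sum. It had 1959, 1505 and 1470 CPM in the controls and 1465, 1424 and 1046 CPM in the knockouts. Axin2 and Rnf43 overlapped between the groups, while the other stem cell markers did not. The 8 tuft cell markers overlapped between the groups, at 111.7 to 237.4 against 72.6 to 114.8 CPM. Floxed control 2 was lowest among the controls, as for Fgfrl1, Klb, Fgfr2 and Fgfr3. Absorptive enterocyte markers did not separate the groups, at 3430 to 7513 against 2643 to 6467 CPM, and knockout 3 lay above 2 of the controls. In the Paneth, enteroendocrine, goblet, stem and tuft cell lists every marker that passed the filter had a negative log2 fold change, and none was at 0 in all libraries. So did 7 of the 8 absorptive enterocyte markers, and 6722 of all 12943 genes tested. Dividing cell markers summed to 591.9 to 1014 CPM in the controls and 1031 to 1226 CPM in the knockouts, the opposite order. The part of these markers in the receptor values was not tested. In bulk RNA, fewer cells of a type and less RNA per cell cannot be told apart.

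**Figure D3:**
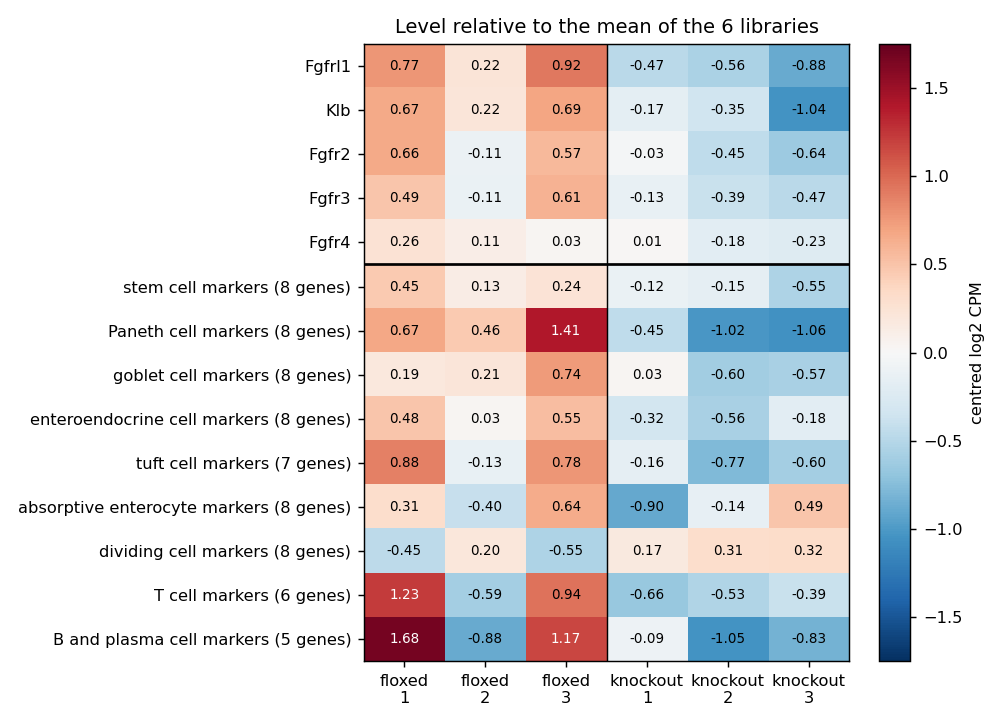
Log2 CPM of 5 FGF receptor genes, and the mean log2 CPM of marker lists of crypt and blood cell types, each centred on its mean over the 6 libraries; red is above and blue below that mean. Fgfrl1 runs from 0.92 in floxed control 3 to -0.885 in knockout 3, and the Paneth markers from 1.41 to -1.06 in the same 2 libraries.

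The rest of the pathway was tested within a fit of all genes, by edgeR's quasi-likelihood test with Benjamini-Hochberg adjustment. The 6 lists of ligands, intracellular FGF homologues, surface partners, heparan sulfate enzymes, signal relay and feedback or target genes held 102 genes, of which 97 were in the table and 72 were tested. None passed at an adjusted p under 0.05 by edgeR, where 2 of all 12943 genes did (0.0155%). DESeq2 called 1 of them, Phlda1, where it called 2.69% of all genes with an adjusted p. At an unadjusted p under 0.05 by edgeR, 5 list genes were lower and 2 higher in the knockouts, and the shares over all genes were 9.63% and 4.09%. The median log2 fold change over the 72 genes was -0.068, against -0.013 over all genes tested.

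Ligand transcripts were scarce. Of 18 secreted FGF genes, 14 were in the table and 4 passed the filter, all with positive log2 fold changes and none called by edgeR. Fgf1, which binds every FGF receptor, was the most abundant at 7.86, 6.88 and 7.09 CPM in the controls and 8.35, 7.73 and 8.62 CPM in the knockouts, a log2 fold change of 0.18 ± 0.20 (SE; edgeR adjusted p = 0.751). Fgf2, a heparin-bound ligand, stood at 1.40, 0.787 and 1.08 CPM against 2.03, 2.04 and 2.74 CPM, with every knockout above every control, but it did not pass (log2 1.07 ± 0.36; edgeR adjusted p = 0.232). Fgf9 had a log2 fold change of 0.47 ± 0.42 (edgeR adjusted p = 0.686). Fgf15 had 1.55 ± 0.68 (edgeR adjusted p = 0.351), and 0.29 without knockout 2. Fgf7 and Fgf10, the mesenchymal ligands of epithelial FGFR2, had 5.0 and 1.88 counts over all 6 libraries together. The intracellular homologues Fgf11 and Fgf14, which do not act through the receptors, had log2 fold changes of 0.14 ± 0.32 and -0.71 ± 0.51 and were not called.

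**Figure D4:**
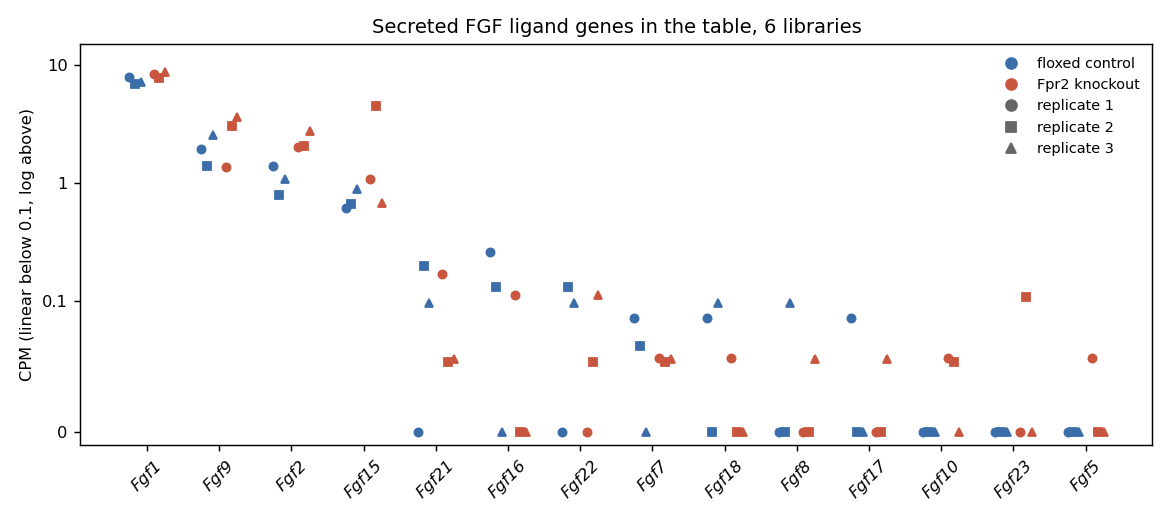
CPM of the 14 secreted FGF ligand genes of the table in each library, on an axis that is linear below 0.1 and logarithmic above; blue is floxed control, red is knockout. Fgf1 lies between 6.88 and 8.62 CPM in all 6 libraries, Fgf15 reaches 4.51 CPM in knockout 2 alone, and the 10 genes at the right are at or near 0.

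None of the surface partners of the receptors was called. Of 17 listed, 12 were tested, with 5 negative and 7 positive log2 fold changes and a median of 0.068. Sdc4 and Sdc1, the syndecans that carry heparan sulfate on epithelia, stood at 135.7 ± 27.2 against 141.6 ± 2.87 CPM and 117.1 ± 25.5 against 108.2 ± 11.4 CPM (SD, n = 3). Fgfbp1, which releases FGFs from the matrix, had 54.3, 127.3 and 68.6 CPM in the controls against 111.4, 96.0 and 96.6 CPM in the knockouts. Its floxed control 2 was the highest library of all, and the log2 fold change of 0.28 ± 0.27 (edgeR adjusted p = 0.710) turned to -0.27 without floxed controls 1 and 3. Without floxed control 2 it was 0.73, with an edgeR adjusted p of 0.0373. Kl, the co-receptor alpha-Klotho, had at most 0.376 CPM in any library, so Klb was the only Klotho co-receptor at a level above trace.

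Among enzymes that build and edit heparan sulfate, 14 of 21 listed were tested, 10 with negative log2 fold changes and a median of -0.076. The 3 with an unadjusted edgeR p under 0.05 were all lower in the knockouts. Over all genes tested, 9.63% were lower and 4.09% higher at that threshold. The lists were chosen with earlier results of these data known, so nothing is read from the count. Hs3st3b1, a sulfotransferase that adds the rare 3-O-sulfate, stood at 4.45, 2.49 and 4.43 CPM against 2.09, 1.502 and 1.34 CPM, with a log2 fold change of -1.19 ± 0.35 (edgeR adjusted p = 0.190). Extl1, an exostosin-like glycosyltransferase, had -0.69 ± 0.25 (edgeR adjusted p = 0.256). Ndst1, which removes acetyl groups and adds N-sulfate along the chain, stood at 93.4, 77.4 and 96.0 CPM against 79.6, 51.5 and 37.9 CPM (log2 -0.66 ± 0.24; edgeR adjusted p = 0.266). Floxed control 2 lay below knockout 1 for Ndst1, and the groups overlapped. Over all alternatives the adjusted p of Hs3st3b1 ran from 0.0237 (without floxed control 2 and knockout 1) to 0.807, that of Ndst1 from 0.0208 (the same setting) to 0.851, and that of Extl1 from 0.0470 (without floxed control 2) to 0.886. Ext1 and Ext2, the chain polymerases, had log2 fold changes of 0.0063 and -0.022, Extl3 had -0.48, Hs6st1 -0.098 and Sulf2 -0.075. Hpse and Glce went the other way, with 0.29 and 0.23, and were not called.

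The signal relay was expressed throughout: all 23 listed genes were tested, and none was called. Their log2 fold changes had a median of -0.065, with 15 negative and 8 positive, and no gene of this list had an unadjusted p under 0.05. Frs2, the docking protein that the activated receptors phosphorylate, stood at 38.3, 29.9 and 31.4 CPM against 30.5, 27.5 and 23.2 CPM (log2 -0.29 ± 0.18; edgeR adjusted p = 0.493). Gab1, a docking partner of Frs2, and Plcg1, the phospholipase that binds the receptor tail, had -0.45 ± 0.23 and -0.38 ± 0.24. Both turned positive, to 0.18 and 0.20, without floxed controls 1 and 3. Mapk3 (ERK1), a kinase at the end of the relay, had -0.25 ± 0.19.

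Among feedback inhibitors and targets, 17 of 19 listed genes were tested, 13 with negative log2 fold changes and a median of -0.19. Phlda1, an immediate early gene induced by receptor tyrosine kinases, had 42.4, 30.7 and 40.1 CPM in the controls against 19.5, 16.6 and 17.2 CPM in the knockouts. The groups did not overlap, and the log2 fold change was -1.08 ± 0.18 (SE). It missed the threshold by edgeR (adjusted p = 0.0680) and fell by DESeq2 (adjusted p = 7.31e-05); over all alternatives the adjusted p ran from 7.3e-05 to 0.609. Il17rd, the membrane inhibitor Sef that binds FGF receptors, stood at 12.1, 5.25 and 7.29 CPM against 4.91, 5.79 and 3.08 CPM, with overlapping groups (log2 -0.83 ± 0.34; edgeR adjusted p = 0.320). Its log2 fold change was -0.13 without floxed controls 1 and 3.

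None of the most often used transcriptional readouts of FGF signalling was called, and the lowest in level were Etv4 and Etv5. The ETS factors Etv4 and Etv5 stood at 1.43 ± 0.246 against 0.876 ± 0.573 CPM and 3.82 ± 1.01 against 3.05 ± 1.19 CPM (SD, n = 3; log2 -0.72 ± 0.50 and -0.33 ± 0.35). Dusp6, the phosphatase that acts on ERK, had a log2 fold change of -0.071 ± 0.26, which turned to 0.27 without floxed control 1. The Sprouty genes Spry1 and Spry2 stood at 8.21 ± 0.672 against 8.09 ± 0.802 CPM and 8.81 ± 0.370 against 9.82 ± 1.82 CPM (SD, n = 3). Spred1 and Spred2, relatives of Sprouty, had 0.39 ± 0.19 and -0.099 ± 0.15. Fos, an early response gene of the MAP kinases, had 0.23 ± 0.35, with controls at 23.6, 9.64 and 16.4 CPM and knockouts at 10.9, 25.2 and 21.8 CPM. These values do not show that signalling was equal in the groups, since the intervals of the low genes are wide.

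**Figure D5:**
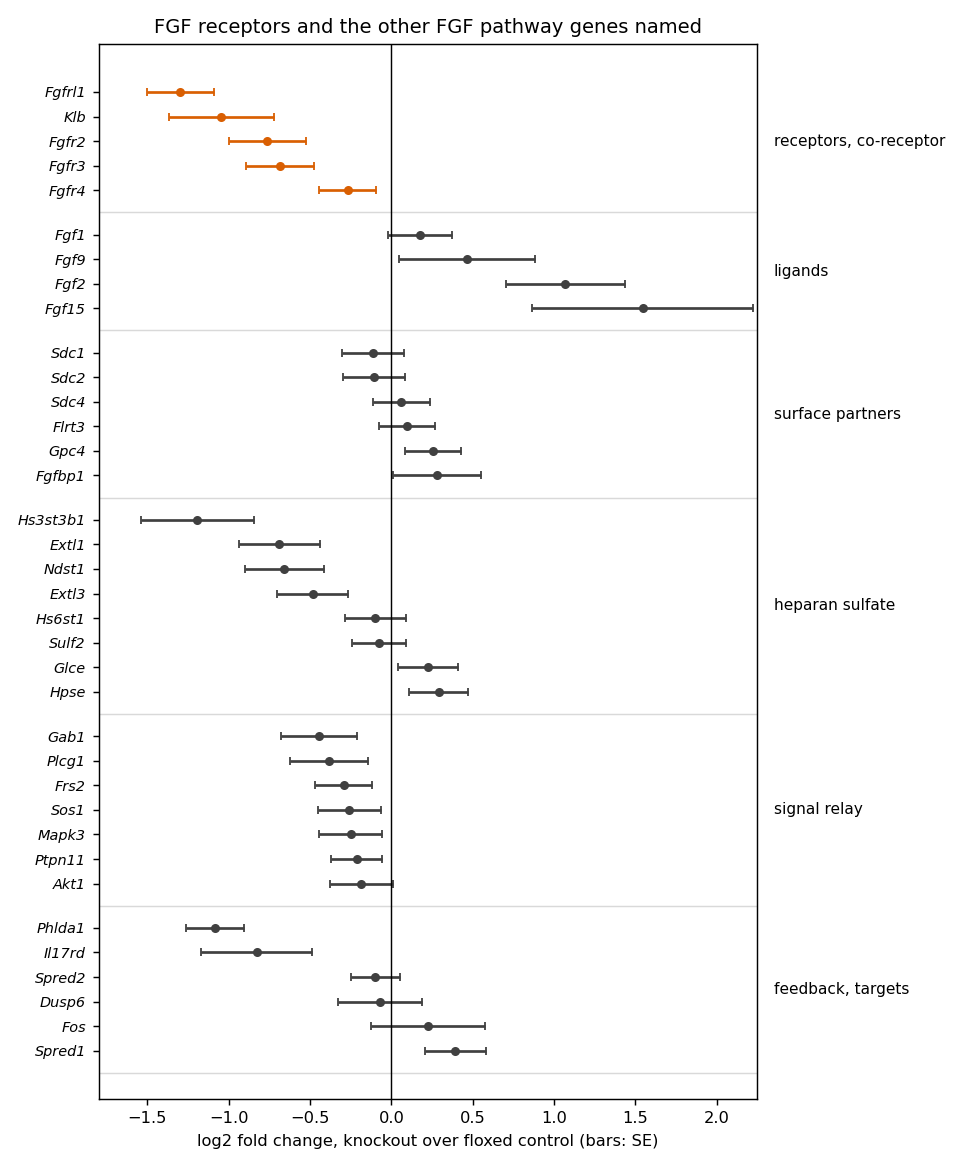
Log2 fold change, knockout over floxed control, with SE, of the 5 FGF receptor genes that passed the filter (orange, no test) and of the pathway genes named by rule (black), grouped by role. The receptor genes lie between -1.30 and -0.27, while the 7 signal relay genes shown lie between -0.45 and -0.18. A further relay gene that the rule names is not shown, and of all 23 relay genes tested 8 were positive.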

How the data were processed

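mRNA libraries from crypts of 3 floxed control and 3 knockout samples were sequenced from one end at 50 bp (DNBSEQ), per the labels' protocols. The deposited values are estimated counts per gene, not scaled; 31.1% to 35.2% of them per library are fractional. The design had assumed raw counts, so the values were rounded before the tests. Per the submitters' processing notes the build is mm10; no source used here gives the aligner, counter or annotation.

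The 12943 of 17526 genes that passed the filter were fitted together with edgeR 4.0.16 in R 4.3.3 (filterByExpr, TMM, glmQLFit with robust estimation, glmQLFTest on group), Benjamini-Hochberg adjusted p under 0.05. SE is the log2 fold change over the root of F. log2 CPM used a prior count of 2. Alternatives were DESeq2 1.42.0, limma-voom 3.58.1, other scaling and filters, a replicate block and libraries left out. The code was tested on simulated data. Reads had no molecular identifiers, and all library pairs differed by more than sampling noise.

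The gene set and the lists were chosen with earlier results of these data known. Pathway genes were named if their mean was 10 CPM or more or their unadjusted p was under 0.05, up to 8 a list, plus each tested ligand. One relay gene that the rule names is not reported here. Fgf7, Fgf10, Fgf11, Fgf14, Kl, Ext1, Ext2, Etv4, Etv5, Spry1, Spry2, Pdgfra, Pdgfrb, Vim and Dcn were named after their values were seen. Lengths, coding sequences and overlaps are from GENCODE M21; all 6 gene IDs matched RefSeq. Figures used Python 3.11.15 and matplotlib 3.10.9.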

Additional observations from a re-analysis of the deposited data

How the results depend on the processing

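The log2 fold changes of Fgfrl1, Klb, Fgfr2, Fgfr3 and Fgfr4 were negative under all 15 alternatives. The alternatives refit the same libraries, and the set was chosen with this comparison in view, so the shared sign is no independent support. Leaving out 1 library at a time moved Fgfrl1 between -1.47 and -1.12. It stood at -0.79 without floxed controls 1 and 3, a setting that leaves 1 control library whose spread is assumed to be like that of the knockouts. The count of genes called over the whole table depended on the setting: 2 by edgeR, 0 with DESeq2 size factors, 342 by DESeq2 (304 lower and 38 higher), 67 with no filter beyond 1 count, 12 without floxed controls 1 and 3, 920 without floxed control 2 and knockout 1, and between 0 and 955 with single libraries left out (955 without floxed control 2). Libraries of the same replicate number had correlations of deviations of -0.177, -0.272 and 0.0681. These values do not show pairing, but so few libraries cannot exclude it. The replicate block gave 39 called genes and none of the pathway lists. The number of pathway list genes called was 1 by DESeq2, 1 with no filter, 3 without floxed control 2 and knockout 1, and 0 to 4 with single libraries left out (4 without floxed control 2). By CPM instead of CPM per kilobase, the share of Fgfrl1 in the controls was 35.7% in place of 46.6%.

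Direction turned for some uncalled genes. Without floxed controls 1 and 3 these were Fgfbp1 (-0.27), Flrt3 (-0.0067), Sdc4 (-0.18), Sulf2 (0.21), Gab1 (0.18), Plcg1 (0.20), Sos1 (0.17) and Dusp6 (0.21). Spry1 stood at 0.00045 with no filter and at 0.042 without floxed control 2 and knockout 1. With single libraries left out, Sdc1 ran from -0.26 to 0.034, Hs6st1 from -0.24 to 0.059, Sulf2 from -0.17 to 0.069, Fos from -0.047 to 0.61, Dusp6 from -0.24 to 0.27, Spry1 from -0.094 to 0.050 and Spry2 from -0.0027 to 0.24. Depth limits Fgfr1 and most ligands, which had too few counts to test.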
